A study of Mus musculus with 24 samples.

Results

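The genes described here are 10 genes known for their response to glucocorticoids: Fkbp5, Tsc22d3, Sgk1, Zbtb16, Klf9, Dusp1, Nr3c1, Mt1, Mt2 and Pdk4. They were found by their gene names on the array, which are 10 of 34797 gene names and gave 12 of the 55681 probes measured, 1 probe for each gene and a second for Mt1 and for Nr3c1. The list was chosen by measured values, since it started from the level of Fkbp5 in BALB/c mammary tissue at 8 weeks, so the difference between LDIR and sham at 8 weeks is given as a description and was not tested. Nr3c1 encodes the glucocorticoid receptor itself and stands in the list as the receptor rather than as a gene known to be induced.

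Female mice of 2 inbred strains were used, BALB/c, a common laboratory strain, and SPRET/EiJ, which is inbred from another mouse species, Mus spretus. At 8 to 9 weeks of age they received a single whole-body X-ray dose of 10 cGy (LDIR, low-dose ionizing radiation) or sham treatment. Mammary gland RNA was profiled in 8 groups of 3 mice: BALB/c after LDIR or sham at 2, at 4 and at 8 weeks, and SPRET/EiJ after either at 4 weeks only. Replicates A, B and C of a group are separate mice, each on its own array. The time of day and the estrous stage at collection are not given in the sources used here.

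Glucocorticoids are adrenal steroid hormones that bind the glucocorticoid receptor in the cytoplasm, where it is held by heat shock proteins and co-chaperones. The bound receptor moves to the nucleus and raises transcription of genes with a response element, usually a pair of short sequences facing each other. In the mammary gland the hormones act together with prolactin on milk protein genes, and in the fat that surrounds the epithelium they regulate adipocyte genes.

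Every one of the 12 probes was marked by the scanner software as well above background on each of 24 arrays. A level is the log2 of the background-subtracted intensity after division by the array's own 75th percentile, so that 0 is that percentile and a difference of 1 is a change by a factor of 2. Levels of different probes cannot be compared with each other. The share of spots well above background ranged from 58.2% to 73.4% over the arrays, and the lowest was LDIR replicate C of SPRET/EiJ. The arrays lay on 3 slides of 8. All 2-week arrays lay on slide 1, all SPRET/EiJ arrays on slide 3, and the 8-week comparison was split, with the 3 sham arrays and LDIR replicate A on slide 2 and LDIR replicates B and C on slide 3. Between 3 mice and 3, an exact two-sided permutation test of a single gene gives no p below 0.1. Luminal epithelial markers (Krt8, Krt18, Krt19, Epcam, Cldn3, Cldn7) were well above background on every array.

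At 8 weeks LDIR replicate B stood apart from replicates A and C in several of these genes. Pdk4 was at 1.74 on replicate B against 4.08 on A and 4.17 on C, Klf9 at 2.04 against 3.78 and 3.40, and Mt1 at 5.47 against 6.91 and 6.99. The same array had the lowest summed level of white adipocyte markers at 8 weeks, 9.27 against 9.63 to 10.51 on the other 5 arrays, and the lowest of skeletal muscle markers, 1.11 against 4.99 to 9.21. Without it the difference between LDIR and sham was -0.89 in place of -0.55 for Tsc22d3, 0.39 in place of -0.12 for Klf9, and 0.18 in place of -0.31 for the brighter Mt1 probe. The values for the other genes that moved with it stand beside their levels. Sham replicate A of 8 weeks also stood apart from sham replicates B and C. The median intensity of its negative control spots was 4.86, against 2.03 and 1.97. It was the lowest sham array in Zbtb16 (2.76 against 4.00 and 4.29) and Klf9 (2.69 against 3.46 and 3.43). In Tsc22d3 it was the highest (5.76 against 5.26 and 5.26). Lymphocyte markers were also high on single arrays, with a summed level of 6.39 on LDIR replicate B against 2.53 and 2.83 on A and C, of 6.09 on sham replicate A of 8 weeks against 2.50 and 2.33 on B and C, and of 5.79 on LDIR replicate A of SPRET/EiJ against 3.41 and 3.76. Over the other groups they ran from 2.59 to 3.49, and the part of these markers in the results was not tested.

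Fkbp5 encodes FKBP51, a co-chaperone of the receptor that lowers its hormone binding and is itself induced by the hormone. Its probe lies on chromosome 17 (chr17:28536060-28536119, mm9, minus strand). The 3 sham BALB/c arrays at 8 weeks were at 3.942, 3.700 and 3.899 for replicates A, B and C, and the 3 LDIR arrays at the same time at 1.59, 2.56 and 1.82. The sham arrays lay above all other 21 arrays of the study, whose highest value was 2.95 in a SPRET/EiJ LDIR mouse, while LDIR replicates A and C lay within the range of the younger BALB/c mice and replicate B (2.564) just above their highest array (2.545). All 3 sham arrays at 8 weeks lay above the other 21 for 0.148% of the probes with a value on every array (82 of 55519), a share given here only as a background because Fkbp5 was chosen for this pattern. The LDIR level was lower than sham by a log2 difference of -1.86 ± 0.32 (SE, n = 3 in each group), or -2.14 without LDIR replicate B. Within slide 2 the single LDIR array was lower than the mean of its 3 sham arrays by a difference of -2.26.

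**Figure D1:**
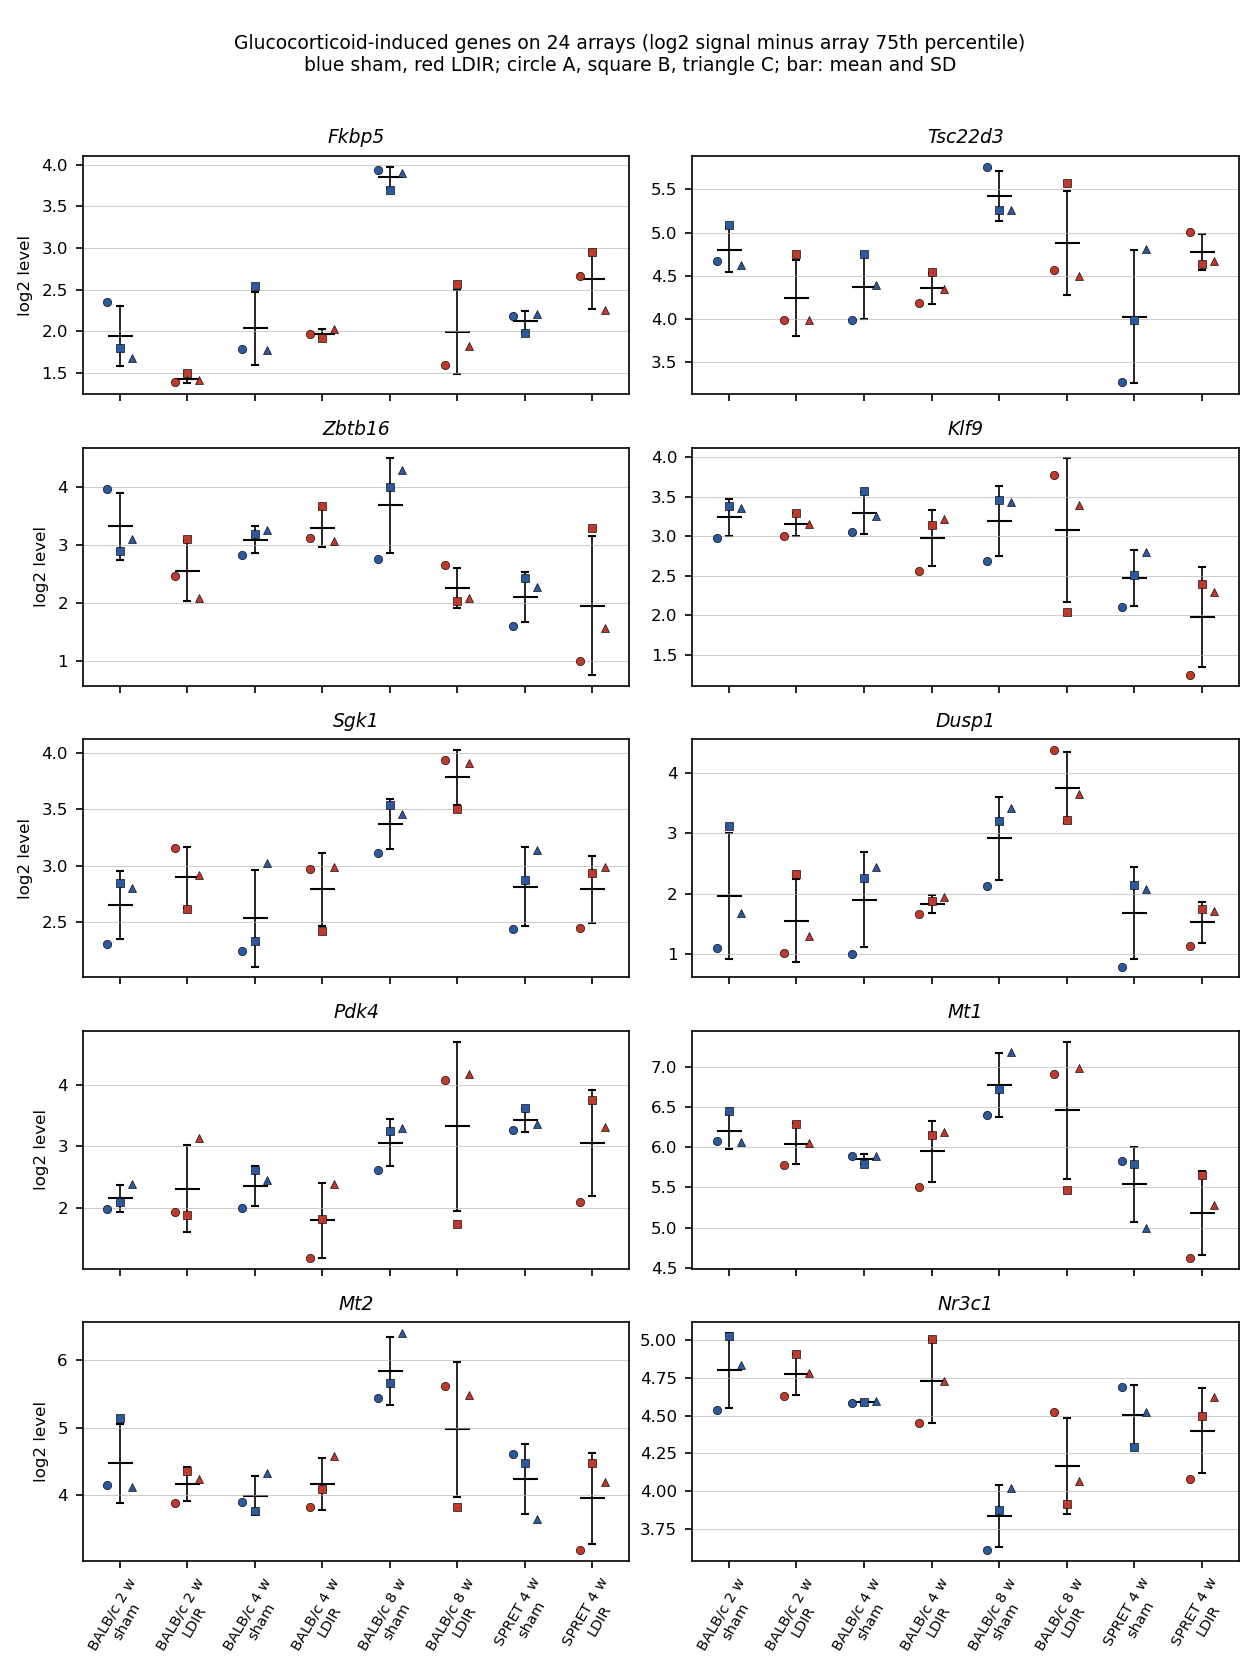
Log2 level of the 10 genes on each of the 24 arrays (vertical axes, log2 intensity relative to the array's 75th percentile), by group on the horizontal axis. Blue points are sham and red points LDIR mice, circles, squares and triangles are replicates A, B and C, and bars show the mean and SD of 3 arrays. The 3 sham BALB/c arrays at 8 weeks carry the highest Fkbp5 levels, and at 8 weeks Sgk1, Dusp1 and Mt2 are high in both groups apart from single arrays.

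In the order of group means, Fkbp5 was highest in sham BALB/c at 8 weeks (3.85 ± 0.13, SD, n = 3), followed by LDIR SPRET/EiJ (2.62 ± 0.35) and sham SPRET/EiJ (2.12 ± 0.13). The next 4 groups were sham BALB/c at 4 weeks (2.04 ± 0.44), LDIR BALB/c at 8 weeks (1.99 ± 0.51), LDIR BALB/c at 4 weeks (1.97 ± 0.05) and sham BALB/c at 2 weeks (1.94 ± 0.36), and from sham SPRET/EiJ down to these 4 the arrays of neighbouring groups overlapped. LDIR BALB/c at 2 weeks was the lowest (1.43 ± 0.06).

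Other genes with the sham pattern at 8 weeks were sought by their likeness to Fkbp5 over the 24 arrays, among 29319 probes that were well above background on every array, with 1 probe for each of 21455 other genes. The 5 highest Pearson correlations were those of a transcript named only NAP000123-003 (0.82), an lncRNA on chromosome 13 (0.80), Rbmxl1 (0.80), Fam107a (0.80) and Sec11a (0.79), where the median over all ranked probes was -0.07. Rbmxl1 encodes an RNA-binding protein, Fam107a an actin-associated protein and Sec11a a subunit of the signal peptidase. The genes at ranks 7 and 8 belonged to the list of 26 other glucocorticoid targets, which was chosen with earlier results of these data known. They were Slc10a6, a carrier of sulphated steroids (0.77), and Hif3a, a hypoxia-inducible factor that antagonises its relatives (0.77). The next of that list or of the 10 genes were far lower, Ddit4 at rank 126 (0.65), Tsc22d3 at rank 145 (0.65) and Arrdc2 at rank 196 (0.63). Without the 3 sham arrays of 8 weeks the correlations were 0.57 for Fam107a, 0.33 for Slc10a6 and 0.55 for Hif3a over 21 arrays. They were higher for NAP000123-003 (0.72), Rbmxl1 (0.68), Sec11a (0.65) and the lncRNA on chromosome 13 (0.61).

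Slc10a6 was at 0.60, 0.45 and 0.79 on the sham arrays at 8 weeks and at -0.38, -0.57 and -0.73 on the LDIR arrays. Fam107a was at -1.45, -1.86 and -1.35 against -2.94, -3.42 and -3.75, and Hif3a at -1.80, -1.07 and -0.68 against -2.79, -3.03 and -2.83. In none of the 3 genes did LDIR and sham overlap at 8 weeks, where 4.84% of all probes had groups without overlap in either direction, and for Slc10a6 and Fam107a the sham arrays were above all other 21, while for Hif3a sham BALB/c replicate A at 2 weeks and LDIR SPRET/EiJ replicate B also reached -1.73 and -1.65. The order of LDIR and sham at 8 weeks was therefore the same as that of Fkbp5 in these genes, in data that were used to choose them.

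**Figure D2:**
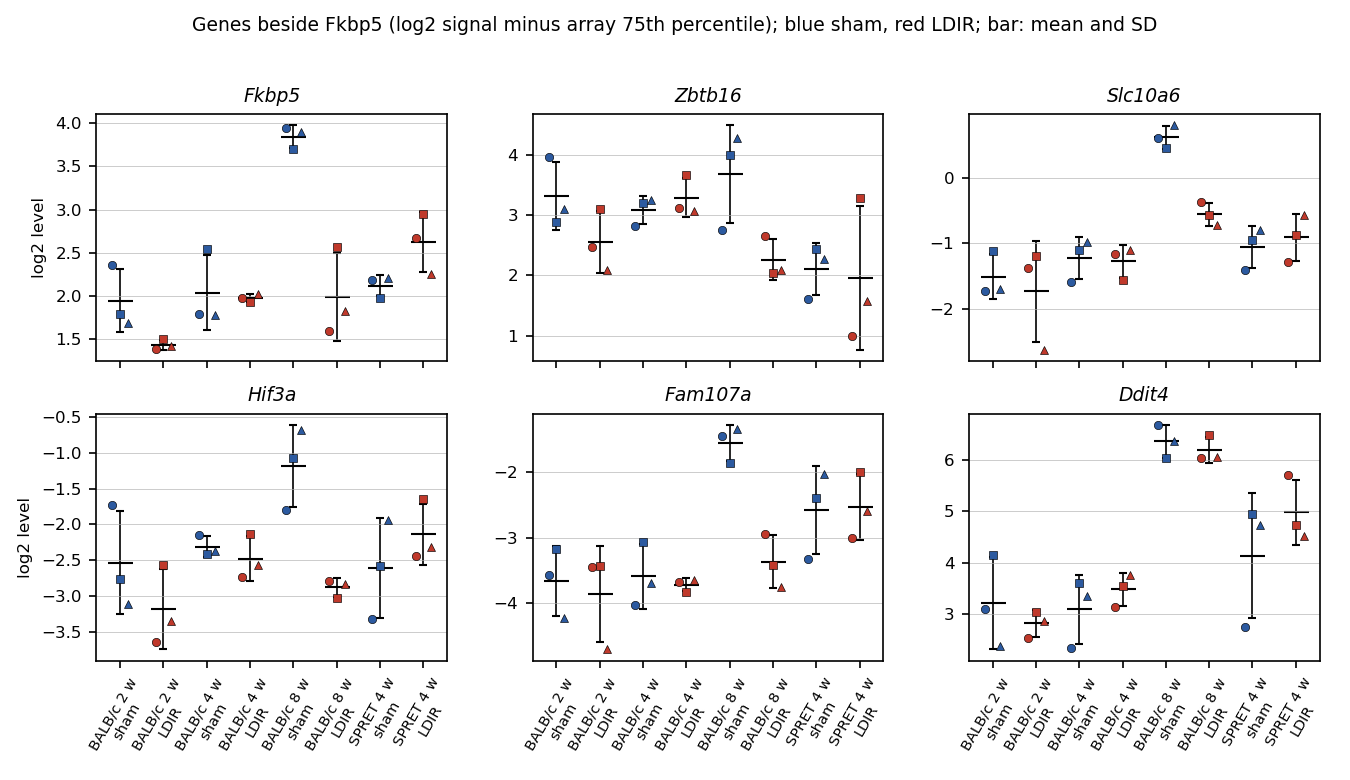
Log2 level (vertical axes) of Fkbp5, Zbtb16, Slc10a6, Hif3a, Fam107a and Ddit4 on the 24 arrays by group (horizontal axis), with colours, symbols and bars as in the plot of the 10 genes. Fkbp5, Slc10a6 and Fam107a are highest on the 3 sham arrays at 8 weeks, while Ddit4 is between 6.04 and 6.68 on all 6 arrays of 8 weeks.

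Among the transcriptional regulators, Zbtb16 encodes the zinc finger repressor PLZF (probe chr9:48462419-48462478, mm9, minus strand). At 8 weeks it was at 2.76, 4.00 and 4.29 in sham and at 2.66, 2.04 and 2.10 in LDIR mice. The groups did not overlap, but sham replicate A lay only 0.10 above the highest LDIR array, and the difference was -1.42 ± 0.46 (SE), or -1.31 without LDIR replicate B. Sham levels at 8 weeks overlapped those at 2 weeks, which were 3.97, 2.89 and 3.10.

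Tsc22d3 encodes GILZ, a leucine zipper protein that mediates part of the anti-inflammatory action of the hormone (probe chrX:137074094-137074153, mm9, minus strand). Its levels at 8 weeks were 5.76, 5.26 and 5.26 in sham and 4.57, 5.57 and 4.50 in LDIR mice, so LDIR replicate B fell inside the sham range while A and C lay below it. Klf9, a Krüppel-like factor induced by glucocorticoids and thyroid hormone (probe chr19:23240410-23240469, mm9), was at 2.69, 3.46 and 3.43 in sham and at 3.78, 2.04 and 3.40 in LDIR mice, and the groups overlapped.

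Sgk1 encodes a kinase that regulates ion channels and transporters (probe chr10:21719507-21719566, mm9). It was at 3.11, 3.54 and 3.46 in sham and at 3.94, 3.50 and 3.91 in LDIR mice at 8 weeks, and 5 of these 6 arrays lay above all 12 BALB/c arrays of 2 and 4 weeks, which ranged from 2.25 to 3.16. The mean at 8 weeks was above that of the younger BALB/c mice by 0.86 on the log2 scale. All 6 arrays of 8 weeks lay above or below all 12 younger ones for 6.33% of probes. The share of all probes with 5 of 6 is not given here, and nothing is read from that count. No 8-week array lay on slide 1, which held all 2-week arrays. For Sgk1 a promoter is shown because it holds the response element in its exact letters. RefSeq gives 15 promoter windows (GRCm38.p6, 250 bases before to 50 after a start) for 8 of the 9 genes searched, and no window for Zbtb16. The search covered both strands for the single element AGAACA and for the palindromic pair, AGAACA and TGTTCT with 3 bases between, which contains it. The single element was in 4 of the 15 windows, those of Sgk1 and Tsc22d3, and in 19% of all 32851 windows. The pair was in 1 of the 15 and in 0.00913% of all windows, which are 3 windows, those of Sgk1, Acnat2 and Gm35041. The 250 bases before that Sgk1 start (chr10:21993640-21993889, GRCm38.p6, plus strand) follow with the pair in capitals, whose first base lies 189 bases before the start.
Sgk1: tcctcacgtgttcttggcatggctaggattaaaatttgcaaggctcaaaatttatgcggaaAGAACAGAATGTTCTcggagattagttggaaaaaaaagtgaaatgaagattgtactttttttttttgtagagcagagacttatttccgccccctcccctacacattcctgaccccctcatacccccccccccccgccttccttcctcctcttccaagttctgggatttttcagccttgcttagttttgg

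Dusp1 encodes a phosphatase that switches off MAP kinases and is also an early gene of growth factor and stress signalling. At 8 weeks it was at 2.13, 3.20 and 3.41 in sham and at 4.38, 3.22 and 3.65 in LDIR mice. Sham replicate A was the lowest and LDIR replicate A the highest, and the groups overlapped. The difference was 0.84 ± 0.47 (SE), or 1.102 without LDIR replicate B. It fell to 0.44 without sham replicate A and to 0.52 without LDIR replicate A, both under 1.5-fold. Immediate early genes had higher levels in the LDIR mice of 8 weeks too. Of 8 (Fos, Fosb, Atf3, Egr1, Jun, Junb, Ier2, Nr4a1), all 8 were over 1.5-fold higher in LDIR, where 22.2% of all probes were over 1.5-fold apart in either direction. Their median difference was 1.499, against -0.14 over all probes, and their summed level was 4.33 to 5.83 in sham and 6.04 to 7.57 in LDIR mice. In the other LDIR comparisons the median was 0.20 at 2 weeks, -0.55 at 4 weeks in BALB/c and 0.04 in SPRET/EiJ. Over all probes these medians were 0.0044, 0.02 and 0.04. Between sham BALB/c mice the median difference of 4 from 2 weeks was 0.98, against 0.01 over all probes. The list was made with earlier results of these data known, so nothing is read from its count at 8 weeks.

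Within that list Nr4a1, which encodes a nuclear receptor, was at 2.75, 3.21 and 2.86 in sham and at 5.29, 4.05 and 4.96 in LDIR mice. Fos was at -0.34, 2.58 and 1.93 against 4.92, 3.14 and 3.44, Fosb at -1.33, -0.37 and -0.55 against 3.41, 0.59 and 1.30, and Atf3 at -1.84, 0.16 and -0.72 against 3.42, 0.57 and 1.26. Junb was at -2.01, -1.70 and -1.46 against -0.32, -0.84 and -1.36, and Ier2 at -0.53, 0.10 and -0.11 against 1.14, 0.55 and 0.35. LDIR was above sham without overlap in these 6 genes of 8, against 4.84% of all probes without overlap in either direction, and in all 6 the highest LDIR value was that of replicate A and the lowest sham value that of replicate A. Egr1 (2.24, 4.53 and 4.27 against 5.73, 4.46 and 4.28) and Jun (2.64, 3.95 and 3.94 against 5.43, 3.76 and 4.84) overlapped. Nothing is read from the 6 of 8 either, since the list was made with earlier results known.

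Pdk4 encodes a kinase that inhibits pyruvate dehydrogenase and so spares glucose (probe chr6:5433441-5433500, mm9, minus strand). It was at 2.62, 3.26 and 3.30 in sham and at 4.08, 1.74 and 4.17 in LDIR mice at 8 weeks. LDIR replicates A and C lay above all sham arrays and B below them, so the difference was 0.27 with replicate B and 1.07 without it.

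Mt1 and Mt2 encode metallothioneins, small proteins that bind zinc and copper and are induced by glucocorticoids and by metals through the factor MTF1. The brighter Mt1 probe lies at chr8:96704165-96704224, a dimmer one at chr8:96703844-96703903, and the Mt2 probe at chr8:96697371-96697430 (mm9). Their promoters are shown because levels of both genes varied together between mice of the same group, as given below. The core of the metal response element, TGCACNC or TGCGCNC on either strand, was in 4 of the 15 windows and in 25.7% of all windows. In the 250 bases before the start the Mt2 sequence held 3 matches, starting 223, 128 and 50 bases before it, and the Mt1 sequence held 1, starting 23 bases before it, in capitals here (chr8:94178839-94179088 for Mt1 and chr8:94172368-94172617 for Mt2, GRCm38.p6, plus strand).
Mt1: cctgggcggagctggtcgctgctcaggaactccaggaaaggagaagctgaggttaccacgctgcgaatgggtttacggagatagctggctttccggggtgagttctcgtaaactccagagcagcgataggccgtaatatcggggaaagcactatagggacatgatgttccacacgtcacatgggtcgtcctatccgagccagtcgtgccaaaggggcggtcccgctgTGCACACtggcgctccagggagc
Mt2: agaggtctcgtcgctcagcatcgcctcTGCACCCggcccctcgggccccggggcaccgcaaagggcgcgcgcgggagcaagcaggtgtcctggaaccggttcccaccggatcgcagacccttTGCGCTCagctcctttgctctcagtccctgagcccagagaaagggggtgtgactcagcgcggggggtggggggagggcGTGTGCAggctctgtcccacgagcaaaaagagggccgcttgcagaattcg

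At 8 weeks Mt2 was at 5.44, 5.67 and 6.40 in sham and at 5.61, 3.82 and 5.49 in LDIR mice. Only LDIR replicate B lay below the sham range, and the difference of -0.86 ± 0.57 (SE) became -0.28 without it. Of the 6 arrays of 8 weeks, 5 were above all 12 younger BALB/c arrays (3.77 to 5.14), a count for which the share of all probes is not given here. The dimmer Mt1 probe showed the same with a larger range: it was at 1.37, 2.08 and 2.74 in sham and at 2.91, 1.06 and 2.82 in LDIR mice, all 6 above the younger BALB/c arrays, which ranged from -2.62 to 0.60. All 6 arrays of 8 weeks lay above or below all 12 younger BALB/c arrays for 6.33% of probes, and among the 12 probes of these genes this was the only one. The brighter Mt1 probe had a mean of 6.01 in the younger mice and 6.61 at 8 weeks, and the dimmer one of -1.08 and 2.16. On the brighter probe 4 of the 6 arrays of 8 weeks lay above all younger BALB/c arrays and 1, LDIR replicate B, below them. The 2 probes therefore disagree on the size of the difference and on how far the arrays separate.

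The glucocorticoid receptor gene Nr3c1 had the opposite order with time. Its brighter probe was at 3.61, 3.88 and 4.02 in sham and at 4.52, 3.92 and 4.07 in LDIR mice at 8 weeks, and 5 of these 6 arrays lay below all 12 younger BALB/c arrays (4.45 to 5.02). The mean was lower at 8 weeks by a log2 difference of -0.72 on this probe and of -0.60 on the dimmer one. The share of all probes with 5 of 6 arrays so placed is not given here, and nothing is read from that count. Clock genes had a summed level of 6.05 to 7.05 over the 6 arrays of 8 weeks and of 6.80 to 7.34 in the younger BALB/c mice, ranges that overlap, and white adipocyte markers were at 9.27 to 10.51 against 10.34 to 11.18. In whole tissue fewer cells of a type and less RNA per cell cannot be told apart, and the part of these levels in the differences between times was not tested.

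The other genes of the pathway were taken as lists. Of 10 genes of the mineralocorticoid receptor, chaperones and receptor coregulators, none was over 1.5-fold apart between LDIR and sham at 8 weeks, and their median difference was -0.17, against -0.14 over all probes. Fkbp4, the co-chaperone that opposes FKBP51, differed by -0.32, and Nr3c2, the mineralocorticoid receptor, by -0.07. Of 5 steroid enzymes 1, Hsd11b2, was over 1.5-fold lower. It was well above background on the 3 sham arrays of 8 weeks and on no other array of the study. Hsd11b1, which regenerates active glucocorticoid inside cells, differed by -0.14.

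Of 26 other glucocorticoid targets, 0 were over 1.5-fold higher and 5 over 1.5-fold lower in LDIR than in sham mice at 8 weeks, with a median of -0.15. Over all probes 22.2% were over 1.5-fold apart in either direction and the median was -0.14. Some of these targets, of which Ddit4 and Errfi1 were picked after their values were seen, were high at 8 weeks in both groups. How many of the 26 were so was not counted. For 6.33% of probes all 6 arrays of 8 weeks lay above or below all 12 younger BALB/c arrays. No 8-week array lay on slide 1, which held all 2-week arrays. Ddit4, an inhibitor of mTOR signalling, was at 6.68, 6.04 and 6.36 in sham and at 6.04, 6.48 and 6.05 in LDIR mice, above all 12 younger BALB/c arrays, whose highest value was 4.15. Errfi1, an inhibitor of EGF receptor signalling, was at 4.73 to 5.51 in sham and at 4.69 to 6.33 in LDIR mice, where the younger mice did not exceed 4.16. Per1, a clock gene with a known response to the hormone, was at 3.54, 3.63 and 3.83 against 4.16, 2.75 and 3.94 and overlapped.

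The comparisons that the choice of genes did not use asked whether these genes differed between LDIR and sham at 2 and 4 weeks and in SPRET/EiJ. A gene passed if limma on the 6 arrays gave it both a change over 1.5-fold and, before adjustment, a p under 0.05. At 2 weeks 0 of 10 genes passed, where 3.13% of all probes did. At an unadjusted p under 0.05 alone limma had 1 gene, Fkbp5, and the methods' t-test 0. The share of all probes at that cut is not given here, and nothing is read from this count. Fkbp5 was at 1.385, 1.496 and 1.413 in LDIR and at 2.36, 1.79 and 1.68 in sham mice, without overlap, and differed by -0.51 ± 0.21 (SE, adjusted p = 0.894 from limma). Groups did not overlap for 11.6% of all probes in this comparison, and Fkbp5 was 1 such gene of 10.

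Zbtb16 at 2 weeks was at 2.47, 3.11 and 2.10 in LDIR and at 3.97, 2.89 and 3.10 in sham mice, with overlap through LDIR replicate B, and differed by -0.76 ± 0.37 (SE, adjusted p = 0.894 from limma). Tsc22d3 was at 3.98, 4.76 and 3.99 in LDIR and at 4.68, 5.09 and 4.63 in sham mice, with overlap, and differed by -0.55 ± 0.27 (SE, adjusted p = 0.894 from limma). The labels do not say that mice of the same letter are pairs, and the tests were unpaired. Set side by side by letter, Fkbp5 and Tsc22d3 were lower in LDIR for A, B and C. Zbtb16 was lower for A and C and higher for B. Without LDIR replicate B 2 genes passed, Zbtb16 (-1.04) among them, and without sham replicate C 1 gene passed, Fkbp5 (-0.64). The median difference of the 10 genes was -0.23, against 0.0044 for all probes, and 8 of 10 were lower in LDIR, with a range of -0.76 to 0.24. Also in SPRET/EiJ 8 of 10 were lower in LDIR, and in sham BALB/c 7 of 10 were lower at 4 than at 2 weeks. The share of all probes that were lower is not given here, and nothing is read from these counts.

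At 4 weeks in BALB/c 0 of 10 genes passed, where 4.78% of all probes did, and neither limma (0) nor the methods' t-test (0) gave a p under 0.05 before adjustment. Fkbp5 was at 1.97, 1.92 and 2.02 in LDIR and at 1.79, 2.54 and 1.78 in sham mice. The LDIR values fell inside the sham range, and the difference of -0.07 ± 0.24 (SE, adjusted p = 0.945 from limma) turned to 0.19 within slide 2, which held 1 of the 3 sham arrays. The 10 genes ranged from -0.56 (Pdk4) to 0.26 (Sgk1), and 1 of them passed without LDIR replicate C.

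In SPRET/EiJ 0 of 10 genes passed, where 2.2% of all probes did, and neither limma (0) nor the methods' t-test (0) gave a p under 0.05 before adjustment. Fkbp5 was at 2.66, 2.95 and 2.25 in LDIR and at 2.18, 1.97 and 2.20 in sham mice. The LDIR arrays lay above the sham arrays without overlap, by 0.50 ± 0.27 (SE, adjusted p = 0.972 from limma), and groups did not overlap for 5.84% of all probes. Tsc22d3 was at 5.01, 4.64 and 4.67 in LDIR and at 3.28, 3.99 and 4.82 in sham mice, with sham replicate C inside the LDIR range, and differed by 0.75 ± 0.41 (SE, adjusted p = 0.972 from limma). Without sham replicate C it differed by 1.14 and passed, and without LDIR replicate C Fkbp5 differed by 0.69 and passed. The other 8 genes were lower in LDIR, down to -0.49 for Klf9. The median difference of the 10 genes was -0.15, against 0.04 for all probes.

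**Figure D3:**
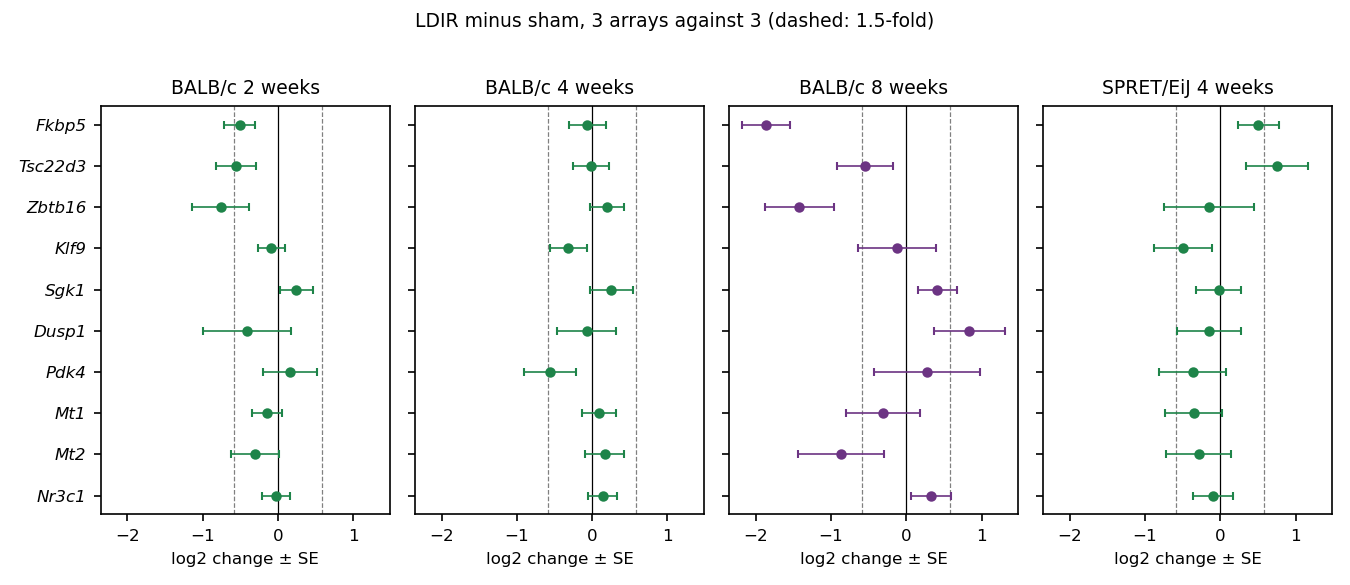
Log2 change from sham to LDIR (horizontal axes) of the 10 genes in the 4 comparisons, with the standard error from limma on 3 arrays against 3 and dashed lines at 1.5-fold. Fkbp5 and Zbtb16 are over 1.5-fold lower in BALB/c at 8 weeks (purple, not tested because the genes were chosen on it), and none of the 10 genes passed the thresholds in the other 3 comparisons (green).

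At 8 weeks 4 of the 10 genes were over 1.5-fold apart, Fkbp5, Zbtb16 and Mt2 lower and Dusp1 higher in LDIR, where 22.2% of all probes were over 1.5-fold apart in either direction. Without LDIR replicate B, Tsc22d3 and Pdk4 were over 1.5-fold apart as well and Mt2 was not. Dusp1 was under 1.5-fold without sham replicate A (0.44) or without LDIR replicate A (0.52). Nothing is read from this share, since the comparison served to choose the genes.

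Whether the change after LDIR at 4 weeks differed between the strains was tested as an interaction on 12 arrays. Of the 10 genes 0 passed the thresholds, where 3.53% of all probes did, and 0 had an unadjusted p under 0.05. For Fkbp5 the change in BALB/c was lower than that in SPRET/EiJ by -0.57 ± 0.36 (SE, adjusted p = 0.957 from limma), and for Tsc22d3 by -0.77 ± 0.50 (SE, adjusted p = 0.957 from limma). Without SPRET/EiJ sham replicate C the Tsc22d3 difference was -1.16 and passed, and 1 gene also passed without SPRET/EiJ LDIR replicate B. Among the other glucocorticoid targets 3 of 26 passed, Il1r2 (1.68) and Bcl6 (1.52) with a higher and Nfkbia (-1.06) with a lower change in BALB/c, all with adjusted p = 0.957 from limma. Il1r2, a decoy receptor for interleukin-1, was also the only target of that list past the thresholds in BALB/c at 4 weeks, at 0.97, -0.96 and -0.44 in LDIR and -1.16, -1.77 and -2.13 in sham mice. At 2 weeks and in SPRET/EiJ 0 of the 26 targets passed.

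Levels in the strains were compared at 4 weeks with the thresholds of an unadjusted p under 0.001 and a change over 1.5-fold, in sham and, on other mice, in LDIR. None of the 10 genes passed in sham, where 8.85% of all probes did, and none in LDIR, where 5.67% did. At an unadjusted p under 0.05, 3 passed in sham in limma and 3 in the methods' t-test, and 3 and 1 in LDIR. The share of all probes at that cut is not given here, and nothing is read from these counts. In sham 18.7% of all probes were under 0.05 in limma even after adjustment. Fkbp5 differed by -0.08 ± 0.25 (SE, adjusted p = 0.854 from limma) in sham and by -0.65 ± 0.25 (SE, adjusted p = 0.169) in LDIR, lower in BALB/c without overlap in the latter.

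Pdk4 in sham mice was at 1.99, 2.62 and 2.45 in BALB/c and at 3.28, 3.63 and 3.37 in SPRET/EiJ. The strains did not overlap, and the difference of -1.07 ± 0.22 (SE) had an adjusted p = 0.021 from limma, a level that 18.7% of all probes reached. In LDIR mice it was -1.26 ± 0.51 (SE, adjusted p = 0.184 from limma). Zbtb16 was higher in BALB/c by 0.99 in sham (adjusted p = 0.0501) and 1.33 in LDIR (adjusted p = 0.218), and Klf9 by 0.83 (adjusted p = 0.067) and 1.00 (adjusted p = 0.161, all from limma), while Mt1 was over 1.5-fold apart in LDIR alone (0.76, adjusted p = 0.24).

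In sham mice 3 of the 10 genes (Pdk4, Zbtb16, Klf9) did not overlap between strains, and 36.7% of all probes did not. In LDIR mice it was 3 of 10 again (Fkbp5, Tsc22d3, Klf9), where 33.2% of all probes did not. No slide held BALB/c and SPRET/EiJ mice of 4 weeks together, and when all 24 arrays were fitted with the slide as block, the Klf9 difference turned to -0.27 in sham and -0.06 in LDIR. The slide difference in that fit rests on the groups split over slides, for slide 3 on the LDIR mice of 8 weeks. How far sequence differences of SPRET/EiJ at the probes take part was not tested.

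Of the steroid enzymes, 3 of 5 were past the strain thresholds in sham mice, all lower in BALB/c, where 8.85% of all probes passed, and 0 of 5 in LDIR mice, where 5.67% did. Hsd11b1 was at 3.04, 3.98 and 2.43 in BALB/c and at 5.970, 7.004 and 5.593 in SPRET/EiJ, a difference of -3.04 ± 0.51 (SE, adjusted p = 0.0101 from limma). Akr1c18, which inactivates progesterone, differed by -2.54 (adjusted p = 0.00414) and Srd5a1, a steroid reductase, by -1.43 (adjusted p = 0.00528). In LDIR mice the Hsd11b1 difference was -2.60 ± 0.62 (SE, adjusted p = 0.0437 from limma) and did not pass an unadjusted p under 0.001, while those of Akr1c18 and Srd5a1 were -1.13 (adjusted p = 0.434 from limma) and -0.67 (adjusted p = 0.426 from limma). In the interaction 1 of the 5 enzymes passed, Hsd11b2 (2.17, adjusted p = 0.957 from limma), whose probe reached a level well above background on none of the arrays of 4 weeks. Luminal epithelial markers were over 1.5-fold higher in BALB/c for 6 of 6 genes in sham (median 1.71) and in LDIR mice (median 1.92), none past the strain thresholds. The share of all probes over 1.5-fold between strains is not given here. Medians in sham and LDIR were 2.11 and 0.44 for skeletal muscle markers, -1.91 and 0.88 for milk proteins and -1.84 and -2.50 for brown adipocyte markers. Over all probes they were -0.06 and -0.05. Some genes of these 3 lists were not well above background on every array. The part of these marker lists in the differences between strains was not tested. Among the 26 other targets 1 was higher (Foxo3, 2.79) and 1 lower (Il1r2, -1.98) in sham BALB/c, and 1 higher (Foxo3, 2.63) and 1 lower (Cdkn1a, -2.29) in LDIR BALB/c. Foxo3 was well above background on 2 of 3 SPRET/EiJ arrays in each group. Fkbp4 and Nr3c2 differed by -0.16 and 0.27 in sham mice, and neither passed, nor did Per1 (-0.45).

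Between 2 and 4 weeks in sham BALB/c, 0 of 10 genes passed an unadjusted p under 0.05 with a change over 1.5-fold, where 3.04% of all probes did. Neither limma (0) nor the methods' t-test (0) gave a p under 0.05 before adjustment. Fkbp5 differed by 0.09 ± 0.30 (SE, adjusted p = 0.992 from limma), and the 10 genes ranged from -0.48 (Mt2) to 0.20 (Pdk4).

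Variation between mice of the same group is independent of the differences that chose the genes, and was examined after removing group means over the 24 arrays. No gene of the other 9 varied with Fkbp5 beyond the permutation of replicates within groups (100000 draws, two-sided, adjusted over 9 genes). The highest Pearson correlation was that of Tsc22d3, r = 0.44 (permutation p = 0.0743, adjusted 0.345; Spearman 0.47, permutation p = 0.0528), and without the 2 arrays farthest from the median it was 0.21. The lowest was that of Sgk1, r = -0.46 (permutation p = 0.0766, adjusted 0.345; Spearman -0.40, permutation p = 0.0807), and -0.38 without those 2 arrays. Within slides 1, 2 and 3 the values were 0.42, 0.51 and 0.45 for Tsc22d3 and -0.52, -0.46 and -0.38 for Sgk1, over 8 arrays each. The genes most like Fkbp5 after removing group means were Chuk, a kinase of the NF-κB pathway (0.80), Wdr73 (0.79), Hnrnph1, a splicing factor (0.79), an lncRNA on chromosome 7 (0.79) and Rif1, a factor of DNA replication timing and repair (0.79).

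All 45 pairs of the 10 genes were then compared in the same way, a step chosen after the values had been seen. Of these, 3 pairs passed an adjusted permutation p under 0.05 over 45, all with a positive correlation. Mt1 and Mt2 had r = 0.94 (Spearman 0.95, adjusted permutation p = 0.0009 for both), Klf9 and Dusp1 r = 0.66 (Spearman 0.63, adjusted permutation p = 0.00112 and 0.0223), and Klf9 and Pdk4 r = 0.86 (Spearman 0.79, adjusted permutation p = 0.0184 and 0.0223). Without the 8-week arrays they were 0.90, 0.61 and 0.73, without the 2 arrays farthest from the median of the first gene 0.91, 0.69 and 0.72, and within slides at least 0.88, 0.73 and 0.38. The first 2 pairs passed with each single array left out, and Klf9 with Pdk4 in 20 of 24 such cases. Without the 8-week arrays 2 pairs passed (1 by Spearman), and 2 without LDIR replicate B of 8 weeks. The number of pairs that passed depended on single arrays, and was 12, 9 and 11 without SPRET/EiJ sham replicates C, B and A, 9 and 7 without BALB/c LDIR replicates B and C at 2 weeks, and 5 and 7 without BALB/c sham replicate B at 2 weeks and at 4 weeks. The probes of Mt1 and Mt2 share no run of bases longer than 7, and at most 24 of 60 bases match without gaps.

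**Figure D4:**
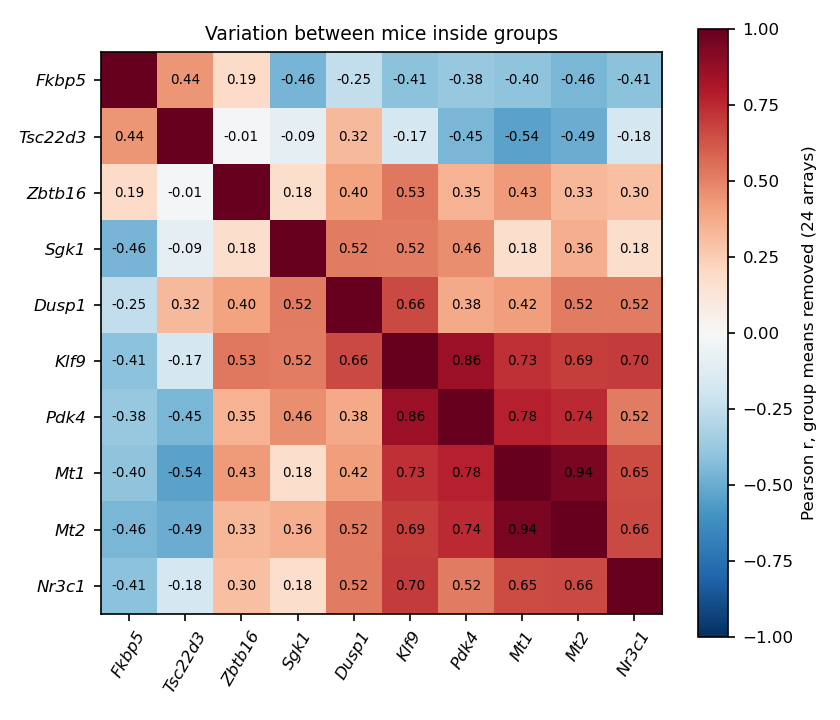
Pearson correlation between each pair of the 10 genes over 24 arrays after group means were removed, on a colour scale from -1 (blue) to 1 (red) with the value in each cell. Among Klf9, Pdk4, Mt1, Mt2 and Nr3c1 the values lie between 0.52 and 0.94, and 2 of these 10 pairs passed (Mt1 with Mt2, Klf9 with Pdk4), while Fkbp5 is positive with Tsc22d3 (0.44) and Zbtb16 (0.19) alone.

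White adipocyte marker levels varied along with several of these genes. The summed level of 6 white adipocyte markers (Adipoq, Plin1, Lep, Cidec, Fabp4, Retn), group means removed, correlated with Klf9 at r = 0.88 (Spearman 0.82, adjusted permutation p = 0.0067) and with Pdk4 at r = 0.86 (Spearman 0.89, adjusted permutation p = 0.0067), over 20 comparisons with fat and muscle markers, which were also added after the values had been seen. Mt1 followed at r = 0.77 (Spearman 0.63, adjusted permutation p = 0.0321) and Nr3c1 at r = 0.67 (Spearman 0.60, adjusted permutation p = 0.0424). Fkbp5 was at r = -0.39 (Spearman -0.42, adjusted permutation p = 0.4), and none of the 10 genes passed with the skeletal muscle markers (Ckm, Acta1, Mylpf, Tnnt3, Myh4), the largest being Fkbp5 at r = -0.58 (Spearman -0.50, adjusted permutation p = 0.14). Without the 8-week arrays the values with fat markers were 0.85 for Klf9, 0.80 for Pdk4, 0.66 for Mt1 and 0.66 for Nr3c1, and 0 of the 20 comparisons passed. Without LDIR replicate B of 8 weeks 2 passed, and the count was also 2 without sham replicate A of 8 weeks, LDIR replicate A of BALB/c at 2 weeks or at 4 weeks, or LDIR replicate A of SPRET/EiJ. The part of these marker levels in the pairs of genes that varied together was not tested.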

How the data were processed

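Per the labels, RNA from frozen mammary gland was labelled with Cy3 and hybridised to 24 single-colour Agilent arrays, 1 mouse each. The deposited values are, per the file headers, scanner intensity from Feature Extraction 10.10.1.1, background-subtracted, with probe positions on mm9. The authors also deposited a table of log2 values, which matched the scanner values after gene centring (r = 1 on every array). Its column medians ran from -0.218 to 0.331, and 100% of its probes had a median within 0.01 of 0 over the arrays, so it is centred by probe. The study's methods name GeneSpring and the 75th percentile, with no shift to a baseline, and do not mention this centring. No per-sample column was left unused (0).

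Processed intensity was divided by the 75th percentile of each array and log2 transformed, outlier spots were left out, and spots of a probe were averaged. The groups compared entered limma 3.58.1 (R 4.3.3) alone, with Benjamini-Hochberg adjustment over all probes. The thresholds, after the study's methods, were an unadjusted p under 0.05 for exposure and time and 0.001 for strain, with a change over 1.5-fold. A gene with 2 probes was counted by the brighter one. Within-group correlations used 100000 permutations in Python 3.11.15. P-values measure the spread between mice of a group.

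The members and the gene lists (118 genes in 17 lists) were chosen with earlier results of these data known. Named by rule were the 10 members, Per1, Hsd11b1, Nr3c2 and Fkbp4, the immediate early genes at 8 weeks and the 5 genes most like Fkbp5. Listed genes past the thresholds were named for the other glucocorticoid targets, and for steroid enzymes between strains and in the interaction. Further listed genes passed and are not named. They include steroid enzymes after LDIR, macrophage, milk protein, basal and brown adipocyte genes in BALB/c at 4 weeks, and erythrocyte genes between sham 2 and 4 weeks. Other genes (among them Slc10a6, Hif3a, Ddit4, Errfi1 and Hsd11b2 at 8 weeks) were chosen after their values were seen. Tested on simulated data with 200 changed probes among 55519, the 2-week comparison recovered 100% of 4-fold and 81% of 2-fold changes, and that of strains in sham mice 65% and 33%. Between strains in LDIR mice it was 62% and only 10%, so a 2-fold difference there would mostly have been missed. Of 2-fold changes 82% were recovered at 4 weeks in BALB/c, 75% between sham 2 and 4 weeks, 63% in SPRET/EiJ and 53% in the interaction. Replicate letters were not used as pairs in the main tests, since the labels give no pairing. Deviations of same-lettered LDIR and sham arrays correlated at 0.167, 0.481 and 0.172 at 2 weeks. At 8 weeks they correlated at -0.56, -0.56 and 0.55. Alternatives were normexp with an offset of 50, quantile normalization, the deposited log2 values, outlier spots kept, dim probes removed, all 24 arrays in 1 fit, slide or replicate as a block, the methods' t-test, and each array left out.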

Additional observations from a re-analysis of the deposited data

Results flagged for a closer look

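The change after LDIR at 4 weeks differed between the strains by the thresholds used in 3 other glucocorticoid targets, by a log2 difference of -1.06 for Nfkbia, 1.68 for Il1r2 and 1.52 for Bcl6 (BALB/c minus SPRET/EiJ), each with an adjusted p = 0.957 from limma. Fkbp5 was lower in every LDIR than in every sham mouse in BALB/c at 2 weeks and higher in every LDIR than in every sham mouse in SPRET/EiJ at 4 weeks. The changes were -1.02 apart on the log2 scale, a difference that was not tested, and strain and time both differ between the groups.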

How the results depend on the processing

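Over all alternatives, 755 values kept their direction and side of the threshold, 8 newly passed it, 28 moved and 15 turned direction. The cause was not tested. The number of the 10 genes past the thresholds became 1 with normexp at 2 weeks, at 4 weeks and between strains in sham mice (Pdk4, -1.04), and 1 in SPRET/EiJ in a fit of all 24 arrays. With each array left out in turn it was 0 to 2 at 2 weeks, and 0 to 1 at 4 weeks, in SPRET/EiJ and in the interaction. With the replicate block it was 0 in each tested comparison, and the block changed no other call. Fkbp5 turned to 0.19 at 4 weeks with slide as a block, on 6 or on 24 arrays (-0.20 to 0.19 with arrays left out). Between strains in sham mice Fkbp5 turned to 0.0251 with quantile normalization and 0.26 with the slide block (-0.33 to 0.0485 with arrays left out). Klf9 turned to -0.27 in sham and -0.0556 in LDIR mice with the slide block. Between 2 and 4 weeks Fkbp5 ran from -0.16 to 0.30 with arrays left out. The within-group correlation with Fkbp5 turned to 0.0442 for Klf9 and 0.0672 for Pdk4 without the 8-week arrays, and with arrays left out ran from -0.54 to 0.0383 for Pdk4 and from -0.0268 to 0.32 for Zbtb16. With slide effects removed 8 pairs of genes passed (2 to 12 with arrays left out), and 7 comparisons with fat or muscle markers, which were 0 without the 8-week arrays (2 to 6 with arrays left out).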
